A study of Mus musculus with 4 samples.

Results

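The growth hormone (GH) and insulin-like growth factor (IGF) axis was followed with 10 genes, taken from the table by symbol: *Ghr*, *Stat5b*, *Socs2*, *Cish*, *Igf1*, *Igfals*, *Igfbp1*, *Igfbp2*, *Igfbp3* and *Igfbp4*. All 10 are among the 20642 gene symbols of the table, and all 10 are among the 12705 active genes, defined by reads near the start site and more than 4 normalized reads per kb, on average, in the gene body. Each is listed with 1 transcript. The assay was PRO-seq, which sequences the RNA that engaged RNA polymerases extend in isolated nuclei, so its reads mark where polymerases were and not how much mRNA had accumulated. Livers of C57BL/6 mice were taken on day 14 after birth. Both genotypes carried the Alb-Cre transgene, a Cre recombinase driven by the albumin promoter and hence active in hepatocytes. WT mice had 2 intact *Hdac3* alleles (+/+), and *Hdac3* KO mice had floxed alleles (fl/fl) or a floxed and a null allele (fl/-). *Hdac3* encodes a histone deacetylase that acts in corepressor complexes. There were 2 libraries per genotype, called WT1, WT2, KO1 and KO2 here, each from liver nuclei pooled over several mice, so the spread between libraries is a spread between pools.

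GH from the pituitary binds its receptor on hepatocytes, and the receptor-bound kinase JAK2 then activates the transcription factor STAT5B. STAT5B switches on the genes for IGF1, for the acid-labile subunit that keeps IGF1 in the blood, and for the inhibitors SOCS2 and CIS that shut the receptor down again. IGF1 circulates bound to IGF-binding proteins, of which IGFBP3 carries most of it in the adult, while IGFBP1 and IGFBP2 are made by hepatocytes and respond to feeding. The liver is the main source of circulating IGF1, and the axis takes hold after birth, when the liver gains GH receptors.

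For each transcript the authors counted reads in the promoter-proximal window, the 50 bp with most reads around the transcription start site (TSS), and in the gene body downstream of it. The values below are normalized reads, which are these counts after multiplication by 1 factor per library. The libraries held 22801905 reads on genes (WT1), 26190040 (WT2), 24049791 (KO1) and 16628518 (KO2). Promoter-proximal windows took 10.3% of these reads (WT1), 9.38% (WT2), 13.6% (KO1) and 17.0% (KO2), so KO2 was both the shallowest library and the one with the largest promoter-proximal share. Gene body reads of *Hdac3* itself were 665 and 648 in WT and 609 and 582 in KO, a log2 fold change of -0.14 (limma adjusted p = 0.413), so the deletion was not visible in these reads and the labels alone give the genotypes. *Xist*, which is transcribed in females, differed between pools, with 445 and 1135 normalized gene body reads in WT and 688 and 196 in KO, and the genotypes overlapped in this measure. For each log2 fold change (KO over WT), a call needed a limma p adjusted by Benjamini-Hochberg under 0.05 together with a log2 change of more than 0.6 in either direction. The smallest two-sided p of an exact permutation test on 2 and 2 libraries is 0.333.

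The 10 genes lie on chromosomes 1, 9, 10, 11, 15 and 17 of GRCm38 (mm10). *Igfbp1* (chr11:7197782-7202546, + strand, 4 exons) and *Igfbp3* (chr11:7206086-7213923, - strand, 5 exons) are tail-to-tail neighbours with 3540 bp between their 3' ends. Gene body polymerase fell in *Igfbp1* and rose in *Igfbp3*, the only member that rose there. *Igfals* lies at chr17:24865997-24882010 (+ strand), and its counted transcript starts inside that span, at 24878258. The 250 bases upstream of their RefSeq starts are printed because of that contrast for the first 2, and for *Igfals* because it was the only member, of the 9 with a promoter window, with a match to the STAT5 motif TTCNNNGAA. The sequences are from RefSeq on GRCm38.p6, written 5' to 3' on the gene's own strand, from chr11:7197537-7197786 (+), chr11:7213924-7214173 (-) and chr17:24877981-24878230 (+). Capitals mark CAAAACA in *Igfbp1* and TTCNNNGAA in *Igfals*.
Igfbp1: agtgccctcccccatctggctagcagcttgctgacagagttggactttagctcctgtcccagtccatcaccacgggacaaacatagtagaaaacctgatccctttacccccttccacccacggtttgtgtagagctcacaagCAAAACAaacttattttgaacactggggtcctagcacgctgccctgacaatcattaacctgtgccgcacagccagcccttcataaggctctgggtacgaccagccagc
Igfbp3: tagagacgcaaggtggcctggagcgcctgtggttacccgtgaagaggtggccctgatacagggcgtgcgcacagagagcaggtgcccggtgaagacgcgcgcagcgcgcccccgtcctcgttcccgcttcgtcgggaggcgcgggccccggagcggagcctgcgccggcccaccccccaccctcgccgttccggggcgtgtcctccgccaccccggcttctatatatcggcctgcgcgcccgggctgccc
Igfals: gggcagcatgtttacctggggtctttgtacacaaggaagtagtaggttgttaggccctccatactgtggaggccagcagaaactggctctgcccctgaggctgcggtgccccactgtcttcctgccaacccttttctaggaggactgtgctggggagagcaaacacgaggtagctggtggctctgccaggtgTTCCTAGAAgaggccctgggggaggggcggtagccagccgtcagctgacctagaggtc

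The TTCNNNGAA match of *Igfals* reads TTCCTAGAA and spans bases -58 to -50 from the RefSeq start. This motif is its own reverse complement and was present in 7.01% of 32817 mouse promoter windows of 250 bp. The letters CAAAACA, the core of the insulin response element through which FOXO factors act on *Igfbp1*, were at -108 to -102 in *Igfbp1* and, on either strand, in 5.56% of all windows. CAAAACA was searched after the sequence had been read. TATAAA, searched on both strands and present in 12.4% of windows, was found among the members only in *Igfbp4*, at -28 to -23. None of these motifs overlapped another. The *Igfbp3* window was rich in CG, with 73.2% G or C and 32 CG dinucleotides, and the *Igfbp1* window was not, with 53.2% and 5. The median of all windows was 52.4% and 6. Windows high in G or C were not particular to the gene that rose. *Stat5b* had 82.0% and 40, *Igfbp4* 69.2% and 22, *Igfbp2* 67.2% and 14, and *Ghr* 65.6% and 17. *Igfals* (59.6% and 4), *Cish* (55.2% and 10) and *Igf1* (52.8% and 5) were lower. RefSeq promoters matched 9 of the 10 members, *Socs2* being the exception. Those of *Igf1* and *Cish* began 2043 and 633 bp from the GENCODE start of the transcript counted. The annotated minus the counted gene body length of *Cish* was 55 bp from the RefSeq start and 688 bp from the GENCODE start. For *Igf1* these were -2061 and -18 bp. The RefSeq start thus fitted the counted length better for *Cish*, and the GENCODE start for *Igf1*. Where several promoters were listed, as the 3 of *Igfals*, the 1 nearest the GENCODE start was used. A match is a string of letters and does not show that a factor was bound.

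In *Hdac3* KO livers, polymerase in the gene bodies of the axis fell for 8 of the 10 genes, rose for 1 and was not called for 1. The genes that fell were the receptor gene *Ghr*, the feedback genes *Socs2* and *Cish*, the hormone gene *Igf1*, *Igfals*, and the binding protein genes *Igfbp1*, *Igfbp2* and *Igfbp4*. *Igfbp3* rose, and *Stat5b* missed the threshold on fold. Over all active genes, 11.4% were called down and 10.4% up in gene bodies. The median log2 fold change of the 10 genes was -1.11, against -0.09 for all active genes. In each of the 10 genes the KO libraries lay on 1 side of both WT libraries, below in 9 and above in 1. Among all active genes, 42.8% lay wholly below and 27.6% wholly above.

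**Figure D1:**
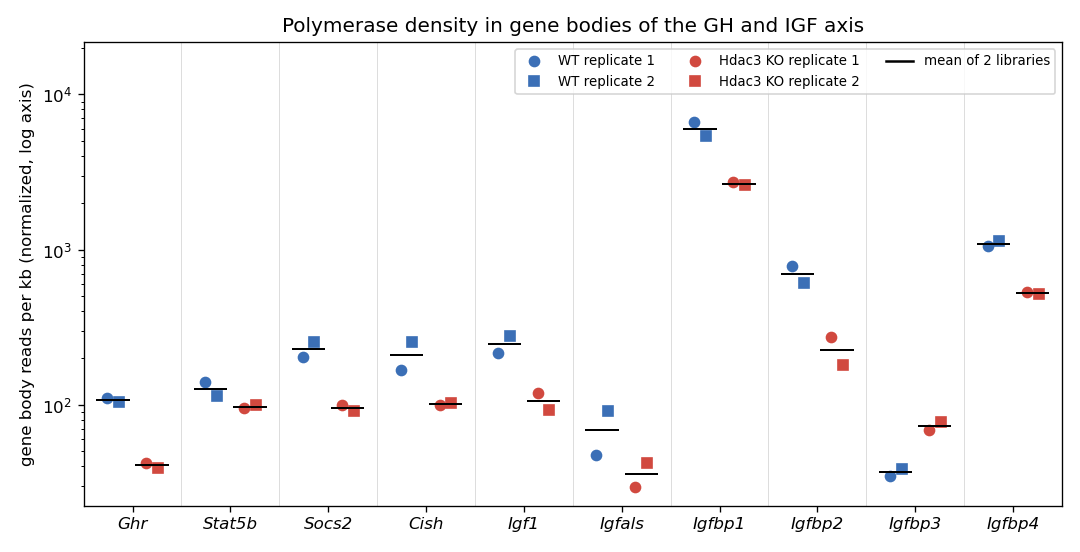
Normalized gene body reads per kb (log axis) of the 10 genes in each library, with circles for replicate 1, squares for replicate 2, blue for WT, red for *Hdac3* KO and a bar at the mean of 2 libraries. The genotypes do not overlap for any of the 10 genes, and *Igfbp3* alone is higher in KO.

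*Ghr*, which encodes the GH receptor, had the lowest adjusted p of the 10. It lies at chr15:3317760-3583492 (- strand, 11 exons), and its gene body of 264471 bp is the longest of the group. Its normalized gene body reads were 29266 (WT1), 27363 (WT2), 11151 (KO1) and 10373 (KO2). Both KO libraries held between 0.354 and 0.408 times the reads of either WT library. The log2 fold change was -1.40 (standard error 0.11, limma adjusted p = 1.54e-09), and it ranked 312 from the lowest among the 12705 active genes.

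*Stat5b*, the transcription factor that carries the GH signal to the nucleus, had the smallest log2 fold change of the 10. It lies at chr11:100780731-100850724 (- strand, 19 exons). Its gene body reads were 9642 (WT1), 7785 (WT2), 6557 (KO1) and 6829 (KO2). The KO values were lower and close to each other, but the distance from WT2 was small, and the log2 fold change of -0.37 (standard error 0.12, limma adjusted p = 0.0129) passed the threshold on p and not the threshold on fold.

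*Socs2* and *Cish* encode the SOCS-box proteins that dampen GH receptor signalling, and both are classical STAT5 targets. *Socs2* (chr10:95385362-95417180, - strand, with the counted transcript at 95411490-95416857) had 889, 1105, 435 and 401 gene body reads in WT1, WT2, KO1 and KO2. *Cish* (chr9:107296026-107302784, + strand) had 712, 1084, 423 and 437. In both genes the 2 KO libraries were nearly equal and the WT libraries were not, with WT2 above WT1 by 1.24 times for *Socs2* and 1.52 times for *Cish*. *Socs2* fell with a log2 fold change of -1.25 (standard error 0.14, limma adjusted p = 1.39e-07), and *Cish* with -1.03 (standard error 0.16, adjusted p = 1.28e-05). Transcripts annotated on the opposite strand, *Gm17040* and *Gm17041*, overlap *Cish*, and *Igf1os* overlaps *Igf1*.

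*Igf1* encodes the circulating growth factor itself and lies at chr10:87858265-87937042 (+ strand). Its gene body reads were 16647 (WT1), 21492 (WT2), 9141 (KO1) and 7121 (KO2). Every KO value was below every WT value, between 0.331 and 0.549 times it, and the log2 fold change was -1.23 (standard error 0.13, limma adjusted p = 1.07e-07).

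*Igfals*, which encodes the acid-labile subunit that joins IGF1 and IGFBP3 in a long-lived complex, was the least certain of the genes that fell. It had 106, 203, 65.8 and 94.1 normalized gene body reads in WT1, WT2, KO1 and KO2, which came from 92, 203, 62 and 62 reads. WT2 was 1.92 times WT1, and KO2 lay just under WT1. The log2 fold change of -0.89 (standard error 0.26, limma adjusted p = 0.00900) was -0.42 without WT2 (adjusted p = 0.241) and -0.63 without KO1 (adjusted p = 0.250), and the call was also lost without KO2 (-1.14, adjusted p = 0.0607) and with median-of-ratios scaling (-0.81, adjusted p = 0.0808).

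Among the binding protein genes, *Igfbp2* fell most. *Igfbp2*, whose protein binds IGF1 and IGF2 and is abundant in the young liver, lies at chr1:72824503-72852474 (+ strand). It had 21075, 16346, 7365 and 4877 gene body reads in WT1, WT2, KO1 and KO2. KO2 was 0.662 times KO1, a wider gap than in the other binding protein genes, but both were at most 0.451 times either WT library. The log2 fold change was -1.63 (standard error 0.15, limma adjusted p = 8.21e-09).

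*Igfbp1*, the insulin-repressed member of the family, was the most densely transcribed of the 10 genes in both genotypes. Its gene body reads were 24834 (WT1), 20223 (WT2), 10254 (KO1) and 9781 (KO2). The KO values were close to each other and under the WT values, and the log2 fold change was -1.16 (standard error 0.12, limma adjusted p = 5.02e-08). Per length it had 5992 ± 867 normalized reads per kb in WT (mean ± SD, n = 2) and 2664 ± 88.9 in KO, and so ranked 5 among the active genes in WT and 7 in KO.

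*Igfbp4*, a binding protein that mainly holds IGF1 back from its receptor, lies at chr11:99041244-99054392 (+ strand). It had 10897, 11727, 5531 and 5376 gene body reads in WT1, WT2, KO1 and KO2. Libraries of the same genotype were close to each other, and the KO mean was 48.2% of the WT mean. The log2 fold change was -1.05 (standard error 0.11, limma adjusted p = 4.33e-08).

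*Igfbp3*, the main IGF carrier of adult blood, was the gene that rose. In the liver it is made largely by non-parenchymal cells. Its gene body reads were 237 (WT1), 263 (WT2), 468 (KO1) and 529.9 (KO2). Both KO libraries held between 1.78 and 2.23 times the reads of either WT library, with a log2 fold change of 0.99 (standard error 0.15, limma adjusted p = 1.19e-05). *Igfbp1*, its neighbour 3540 bp away, fell in the same libraries.

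The order of the genes by level shifted little at the top and more below. By gene body reads per kb, *Igfbp1*, *Igfbp4* (1089 ± 56.5 in WT and 525 ± 10.5 in KO) and *Igfbp2* (693 ± 124 and 227 ± 65.2) held the first 3 places in both genotypes, and each stood above the next in both libraries. In WT, *Igf1* (248 ± 44.5), *Socs2* (228 ± 34.9) and *Cish* (210.2 ± 61.5) followed, and neighbours among these could not be told apart by their libraries. *Stat5b* (127 ± 19.1), *Ghr* (107 ± 5.09), *Igfals* (68.9 ± 30.8) and *Igfbp3* (36.6 ± 2.64) came last. In KO, *Igf1* (106 ± 18.6), *Cish* (100.7 ± 2.32), *Stat5b* (97.2 ± 2.80) and *Socs2* (95.7 ± 5.52) overlapped with their neighbours. *Igfbp3* (73.0 ± 6.42) had left the last place and stood above *Ghr* (40.7 ± 2.08) and *Igfals* (35.7 ± 8.96), which overlapped. *Ghr* density was above that of 87.5% of active genes in WT and of 56.0% in KO, and *Igfbp3* density above that of 48.7% and 79.4%.

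The fall in gene bodies was shared with the markers of hepatocytes, and the rise of *Igfbp3* with markers of other cells. Of 6 hepatocyte markers in the table, 5 fell (*Alb*, *Apoa1*, *Hnf4a*, *Cps1* and *Serpina1a*), and their median log2 fold change was -1.42. Their summed gene body reads were 255918 to 257552 in WT and 112894 to 117671 in KO. All 8 stellate cell markers rose, with a median of 1.60 and sums of 12042 to 13178 in WT and 25063 to 27511 in KO, as did 7 of 8 endothelial markers, with a median of 0.70 and sums of 55842 to 60988 and 93712 to 105216. By limma, edgeR and DESeq2 alike, 0 of the 6 Kupffer and myeloid markers were called in gene bodies (3 were higher in KO at an unadjusted p under 0.05), and their sums were 15429 to 15711 in WT and 16792 to 19672 in KO. Of 5 erythroid markers 4 fell and 1 rose, with sums of 1536 to 1905 and 1769 to 1864. Of 3 active cholangiocyte markers 2 fell, with sums of 2987 to 3482 over the list in WT and 1339 to 1382 in KO. No marker of these lists was at 0 in all libraries, and *Serpina1a*, the least read of the hepatocyte markers, still had 1742 and 1639.8 gene body reads in KO. In whole liver, fewer hepatocytes and less polymerase per hepatocyte cannot be told apart, and the part of the cell mix in the changes of the 10 genes was not tested.

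**Figure D2:**
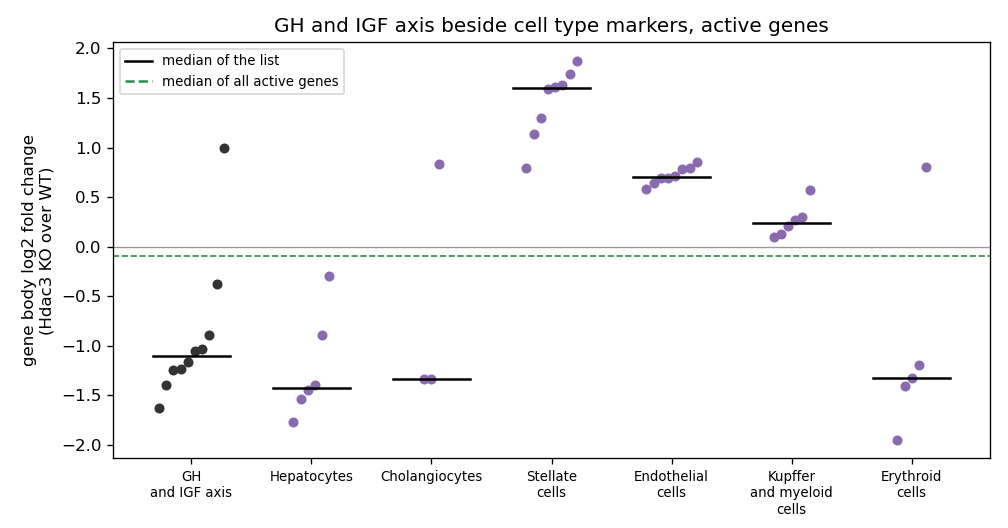
Gene body log2 fold changes (KO over WT) of the 10 genes of the axis (black) and of the active markers of 6 liver cell types (purple), 1 point per gene, with a black bar at the median of each list and a dashed line at the median of all active genes, -0.09. The axis has its median at -1.11, near the hepatocyte markers at -1.42, and *Igfbp3* at 0.99 lies within the range of the stellate cell markers.

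Near the TSS fewer of the 10 genes were called. Promoter-proximal reads fell for *Igfbp1* and *Igfbp2*, rose for *Igfbp3* and *Cish*, and were not called for the other 6. Over all active genes, 25.8% were called up and 2.2% down, and the median log2 fold change was 0.56, so most genes gained promoter-proximal reads on the deposited scale. The median of the 10 genes was 0.13. The groups did not overlap for 6 of the 10, with KO below WT for *Igfbp1* and *Igfbp2* and above it for *Igf1*, *Igfbp3*, *Cish* and *Stat5b*. Among all active genes, 61.9% lay wholly above and 6.72% wholly below. When libraries were scaled within this region (median of ratios), the median of all genes came to 0.00 and the calls over all genes turned from 3282 up and 280 down to 634 up and 942 down, and directions of single genes are therefore also given relative to the median.

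**Figure D3:**
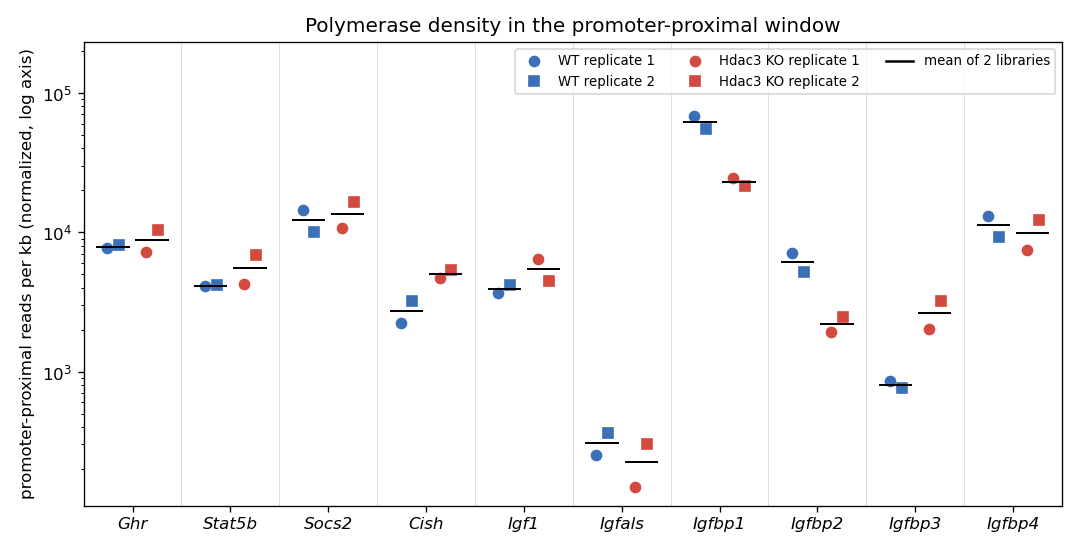
Normalized promoter-proximal reads per kb (log axis) of the 10 genes in each library, with symbols as for the gene bodies. *Igfbp1* and *Igfbp2* are lower and *Igfbp3* and *Cish* higher in both KO libraries, while *Ghr*, *Igfals*, *Igfbp4* and *Socs2* overlap between genotypes.

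*Igfbp1* had 3387 promoter-proximal reads (WT1), 2765 (WT2), 1234 (KO1) and 1070.4 (KO2). *Igfbp2* had 355, 260, 96.5 and 123 in the same order. Both KO libraries were at most 0.473 times either WT library in both genes, and both genes fell in the gene body too. The log2 fold change was -1.41 (standard error 0.27, limma adjusted p = 1.47e-05) for *Igfbp1* and -1.47 (standard error 0.32, adjusted p = 0.000173) for *Igfbp2*, which is -1.97 and -2.03 relative to the median gene. In the same windows 3 of 6 hepatocyte markers fell (median log2 fold change -0.75), while 7 of 8 stellate cell markers (median 2.12) and all 8 endothelial markers (median 1.34) rose, and their part in the changes of the binding protein genes was not tested. *Igfbp1* ranked 115 and *Igfbp2* 107 from the lowest among all active genes. The adjusted p was 0.0539 for *Igfbp1* without KO2 and 0.108 for *Igfbp2* without WT1, with log2 fold changes of -1.31 and -1.25.

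*Igfbp3* had 42.5, 38, 102 and 159 promoter-proximal reads in WT1, WT2, KO1 and KO2. Every KO value was at least 2.40 times every WT value, and the log2 fold change of 1.64 (standard error 0.36, limma adjusted p = 0.000175) was 1.08 relative to the median gene. It was 1.56 without WT2 (adjusted p = 0.0634) and 1.32 without KO2 (adjusted p = 0.0764). *Igfbp3* was thus higher in KO in both regions.

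*Cish* had 112, 160, 234 and 267 promoter-proximal reads in WT1, WT2, KO1 and KO2, while its gene body reads fell. Its log2 fold change of 0.89 (standard error 0.32, limma adjusted p = 0.0271) was 0.33 relative to the median gene, and scaling within the region ended the call (0.33, adjusted p = 0.431). Leaving out WT1 (0.64, adjusted p = 0.375), WT2 (1.15, adjusted p = 0.154) or KO2 (0.80, adjusted p = 0.154) ended it too.

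The remaining 6 genes were not called in this region. *Ghr* had 384, 402, 359 and 519 promoter-proximal reads in WT1, WT2, KO1 and KO2, with a log2 fold change of 0.13 and a 95% interval of -0.45 to 0.72. *Socs2* had 721, 501, 531 and 818, with 0.13 and an interval of -0.43 to 0.70. On the deposited scale these intervals lie above the gene body estimates of -1.40 and -1.25, which have errors of their own. The difference between the 2 regions is tested below with the pausing index. *Igf1* had 184, 210, 319 and 225 reads (log2 fold change 0.45, interval -0.17 to 1.07), and *Stat5b* had 204, 208, 212 and 342 (0.38, interval -0.23 to 1.002). In both, the KO libraries were above the WT libraries by little in 1 of the 2. *Igfbp4* had 655, 465, 372 and 613 reads (-0.21, interval -0.78 to 0.37), and with scaling within the region it was called down at -0.78 (adjusted p = 0.0165). *Igfals* had 12.6, 18, 7.43 and 15.2, from 7 to 18 reads per library, which is too few to show a change of this size (-0.46, interval -1.36 to 0.43). Relative to the median gene, the log2 fold changes of the 6 ranged from -0.11 for *Igf1* to -1.02 for *Igfals*, and with scaling within the region *Igfbp4* was the only one called.

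**Figure D4:**
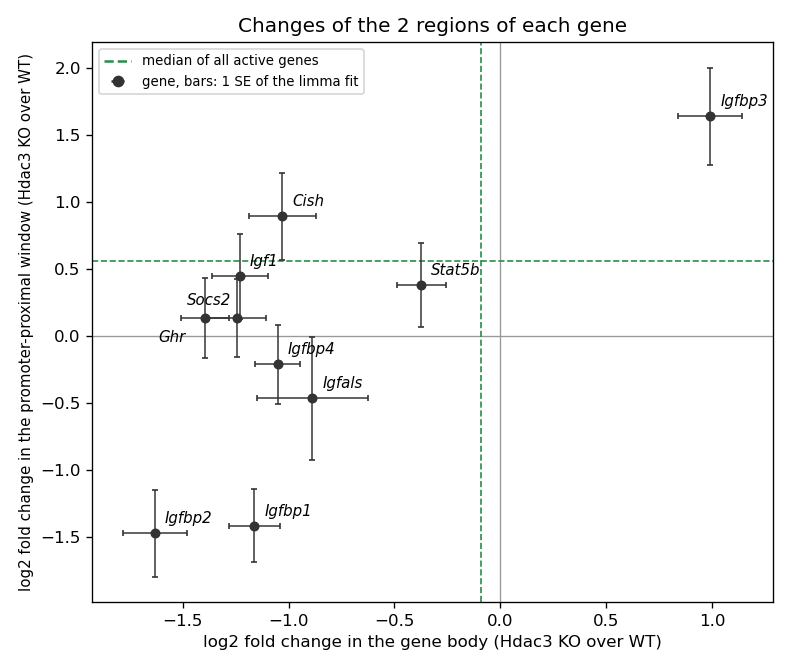
Log2 fold change (KO over WT) in the gene body (x axis) and in the promoter-proximal window (y axis) of the 10 genes, with bars of 1 standard error from limma and dashed lines at the medians of all active genes, -0.09 and 0.56. *Igfbp1* and *Igfbp2* are low in both regions, *Igfbp3* is high in both, and *Cish*, *Igf1*, *Ghr* and *Socs2* are low in the gene body and above 0 near the TSS, where scaling within the region takes *Igf1*, *Ghr* and *Socs2* below 0.

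The difference between the 2 regions was tested with the pausing index, the density of reads in the promoter-proximal window over that in the gene body. It rose for *Ghr*, *Igf1*, *Socs2* and *Cish*, the receptor, the hormone and both feedback inhibitors, and fell for none. By limma 11.2% of active genes were called up and 0.543% down. At an unadjusted limma p under 0.05, 5 of the 10 genes were higher and 0 lower. The share of all active genes at that unadjusted p was not computed. Of all active genes, 88.8% had a log2 fold change above 0, so a count in 1 direction does not set the members apart. The median log2 fold change was 0.80 for the 10 genes and 0.61 for all active genes. The groups did not overlap for 8 of the 10. KO was wholly below WT for *Igfbp1* and wholly above it for *Ghr*, *Igf1*, *Igfbp3*, *Igfbp4*, *Socs2*, *Cish* and *Stat5b*. Among all active genes, 62.6% lay wholly above and 3.1% wholly below, so the share wholly above was close to that of the members.

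**Figure D5:**
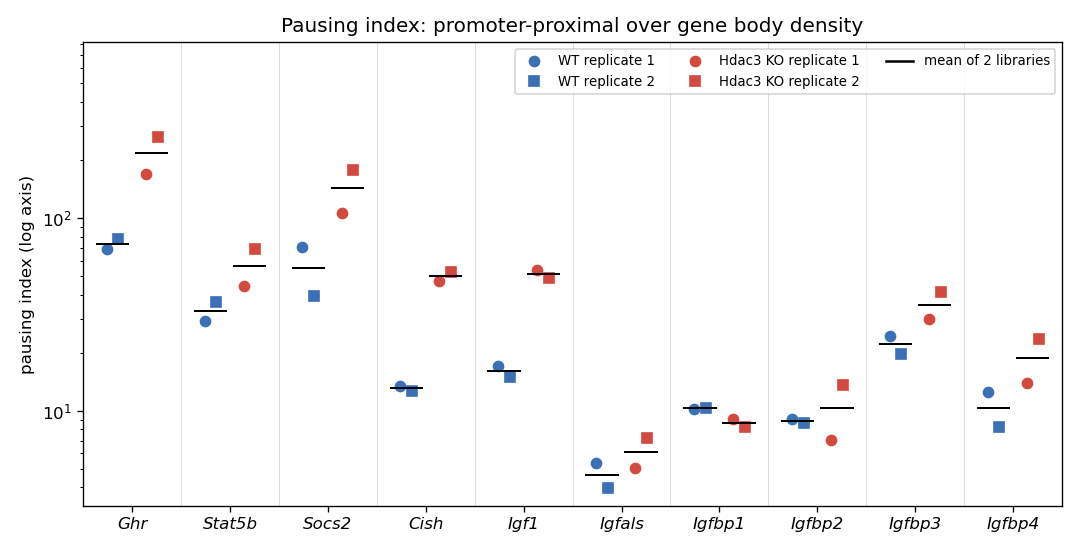
Pausing index (promoter-proximal over gene body density, log axis) of the 10 genes in each library, with symbols as for the gene bodies. *Ghr*, *Socs2*, *Cish* and *Igf1* are higher in both KO libraries, and *Igfbp1*, at 10.3 in WT, is at 9.05 and 8.23 in KO.

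*Cish* changed most, with a pausing index of 13.5 (WT1), 12.6 (WT2), 47.3 (KO1) and 52.2 (KO2). *Igf1* went from 17.0 and 15.05 in WT to 53.8 and 48.6 in KO. For both genes the libraries of a genotype were close and the genotypes far apart. The log2 fold change was 1.92 (standard error 0.38, limma adjusted p = 0.000140) for *Cish* and 1.68 (standard error 0.45, adjusted p = 0.00924) for *Igf1*. *Ghr* had the highest index of the 10 in each library but WT1, with 69.5 and 77.7 in WT and 170.1 and 265 in KO (log2 fold change 1.53, adjusted p = 0.0154). *Socs2* had 70.8 and 39.6 in WT and 107 and 178 in KO (1.38, adjusted p = 0.0121). The spread between the KO libraries was wide in these 2 genes, with KO2, the library with the largest promoter-proximal share, above KO1.

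The other 6 genes were not called. *Igfbp1* had 10.3 in both WT libraries and 9.05 and 8.23 in KO, with a log2 fold change of -0.25 (interval -1.02 to 0.52), and *Igfbp2* had 9.08, 8.59, 7.08 and 13.6 (0.16, interval -0.72 to 1.04). Scaling each region on its own gave -0.90 for *Igfbp1* and -0.49 for *Igfbp2*, neither of them called. *Igfbp4* (0.84), *Stat5b* (0.76), *Igfbp3* (0.65) and *Igfals* (0.43) had positive log2 fold changes near that of the median gene. None of the 10 genes was called when each region was scaled on its own, with changes of 1.27 for *Cish*, 1.03 for *Igf1*, 0.88 for *Ghr* and 0.73 for *Socs2* and adjusted p of 0.0859, 0.215, 0.233 and 0.328, and 2 of all active genes were then called up.  Leaving out WT1 or WT2 ended all 4 calls, and leaving out KO2 left 2.

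Other genes of the pathway were read from 3 lists with 60 genes, 43 of them active. In gene bodies 8 rose and 14 fell, beside the 10.4% and 11.4% of all active genes. In promoter-proximal windows 8 of the 43 rose and 9 fell, beside the 25.8% and 2.2% of all active genes.

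Among 19 active genes around the GH receptor, 1 rose, 3 fell and 15 were not called in gene bodies, with a median log2 fold change of -0.07. The genes that fell were *Onecut1* and *Cux2*, which encode transcription factors of hepatocytes regulated by GH, and *Grb14*, which encodes an adaptor that binds the insulin receptor. *Onecut1* had 2696 and 5507 gene body reads in WT and 1080 and 791 in KO (log2 fold change -2.06, limma adjusted p = 1.96e-08). *Grb14* fell by 1.53 and *Cux2* by 1.08 on the log2 scale. *Jak2*, the kinase of the receptor, had 2065 and 1974 reads in WT and 2722 and 2545 in KO (0.38, adjusted p = 0.00713, under the threshold on fold), and *Stat5a*, the close paralog of *Stat5b*, had -0.20 (adjusted p = 0.200). *Jak2* and *Stat5a* were chosen for mention after their values were seen.

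Among 13 active genes of the IGF system, 5 rose and 5 fell in gene bodies, with a median of 0.04. *Igf2*, the fetal growth factor that is shut down in liver after birth, had 1711 and 3352 gene body reads in WT and 382 and 149 in KO. It fell by 3.32 on the log2 scale (limma adjusted p = 1.91e-09), more than any of the 10 genes, and the libraries differed widely within both genotypes. *Klf15*, a fasting-responsive transcription factor, fell by 1.62, and the insulin receptor substrate genes *Irs2* and *Irs1* fell by 1.03 and 0.60. *Igf2bp3*, which encodes an mRNA-binding protein, fell by 0.79. The genes that rose were *Stc2* (1.64), *Stc1* (1.33), *Igfbp5* (1.06), *Igfbp7* (1.03) and *Igf1r* (0.90). Stanniocalcins, encoded by *Stc1* and *Stc2*, block the protease that frees IGF1 from IGFBP4, and *Igf1r* encodes the IGF1 receptor, which hepatocytes make little of. *Irs1*, *Igf2bp3*, *Igfbp7* and *Igf1r* were named after their values were seen, to complete the 10 calls. The stellate and endothelial markers rose in the same libraries, and their part in these rises was not tested.

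Among 23 genes known in adult liver as GH-dependent or biased to 1 sex, 11 were active on day 14, and 2 rose and 6 fell in gene bodies, with a median log2 fold change of -0.997. Of 6 hepatocyte markers 5 fell in the same libraries, with a median of -1.42, and their part in these falls was not tested. *Serpina3k* fell by 2.89 and *Egfr*, the epidermal growth factor receptor gene, by 1.94 on the log2 scale. *Cyp2b13*, a cytochrome P450 gene, had 577 and 562 reads in WT and 3084 and 3175 in KO (log2 fold change 2.46, limma adjusted p = 6.10e-13), and *Acot3* rose by 1.28. *Serpina3k*, *Cyp2b13* and *Acot3* belong to families of near-identical copies, so their reads are less certain. Of the 12 genes that were not active, *Mup20* was at 0 in all 4 libraries.

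Of the 10 genes, 2 were the closest gene of a listed enhancer, and 1 had a listed enhancer within 50 kb. The list holds 2282 intergenic enhancers called on reads pooled over the 4 libraries, with no value per library, and 10.9% of active genes are the closest gene of at least 1. *Igfbp2* was the closest gene of 3, at chr1:72762324-72775095, chr1:72804628-72807154 and chr1:72808605-72812270, with centres 51544, 18298 and 14972 bp upstream of the start of its transcript. These 3 are the only listed enhancers assigned to a member by the distance limit of 50 kb. The authors list the first at 49385 bp, less than the distance from its centre to the transcript start. *Igf1* was the closest gene of 1, at chr10:87709909-87714463, with its centre 147118 bp upstream. None of these 4 is marked as known in FANTOM5. Regions inside or close to genes were not searched, so no enhancer within *Ghr* or *Igf1* could be listed. The list also links enhancers to genes by chromosome contacts recorded in 4DGenome, with 7 enhancers for *Ghr*, 5 for *Socs2*, 4 for *Igfbp2*, 3 for *Igfbp3*, 2 for *Igf1*, 1 each for *Igfals* and *Cish*, and 0 for the other 3.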

How the data were processed

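PRO-seq was done on liver nuclei of 2 WT and 2 *Hdac3* KO pools. Per the labels, cutadapt, Bowtie2 and mm10 were used. The authors removed ribosomal and poorly mapped reads and counted the rest with NRSA. Deposited values of WT2 are read counts (factor 1). For WT1, KO1 and KO2 the authors deposited signal, counts times 1.15, 1.06 and 1.52, and division gave whole reads for 100% of values (tolerance 0.01). Deposited densities are signal per bp, and the enhancer list was made by the authors from pooled reads and gives positions and a distance in bp.

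Of several transcripts of a symbol, the 1 with most promoter-proximal reads on average was used. Log2(normalized reads + 1) was compared by limma 3.58.1 with a mean-variance trend and without a block (R 4.3.3) over 12705 active genes with Benjamini-Hochberg adjustment. The fold change is on this scale and understates changes of low genes. The pausing index was tested as the difference of the 2 log2 values. The procedure was tested on simulated promoter-proximal and gene body reads with equal numbers of rises and falls. The simulation held no shift of most genes and no pausing index, so it does not bear on those. Alternatives were edgeR 4.0.16 and DESeq2 1.42.0 on recovered reads, other scalings (median of ratios, TMM), pseudocounts of 0.1 and 10, other filters and transcripts, a replicate block, crossed pairing and each library left out.

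The members, gene lists and motifs were chosen with earlier results of these data known. Named genes are the 10 members and, per list, the 3 largest rises and falls among gene body calls, some of which are not reported here. Cell type markers were likewise listed by name. Of them, *Tf*, *Adgre1* and *Epb42* were not analysed here. Gene coordinates are from GENCODE vM21 (GRCm38), promoter sequences from RefSeq. The labels do not say that replicate numbers mark shared batches, so numbers were not used as pairs. Plots used matplotlib 3.10.9.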

Additional observations from a re-analysis of the deposited data

How the results depend on the processing

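In gene bodies, the counts of 8 falls and 1 rise held in edgeR and DESeq2 on recovered reads, with other pseudocounts and with the replicate block. With other scalings and without WT2, KO1 or KO2, 7 falls were called, *Igfals* being lost. With no filter on activity, which adds 7937 low genes to the fit, 2 members fell (*Ghr* and *Igfbp4*) and 0 rose, promoter-proximal calls came to 0 up and 0 down, the pausing index to 0 up, and the wider lists to 2 up and 8 down. With no threshold on the fold change the wider lists had 13 rises.

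Promoter-proximal and pausing calls depended more on the processing. With median-of-ratios or TMM scaling within the region, 1 member rose near the TSS and 0 by the pausing index. With the replicate block these counts were 1 and 1. Leaving out each library gave 0 to 2 promoter-proximal rises (0 without WT2 or KO2), 1 to 2 falls (1 without WT1 or KO2) and 0 to 6 rises of the pausing index (0 without WT1 or WT2, 6 without KO1). Under both within-region scalings the promoter-proximal log2 fold change turned to -0.44 for *Ghr* and *Socs2*, -0.12 for *Igf1* and -0.18 (median of ratios) or -0.19 (TMM) for *Stat5b*, and that of the pausing index to -0.19 for *Igfals* and -0.49 for *Igfbp2*. None of these was a called change. Leaving out libraries gave promoter-proximal ranges of -0.13 to 0.40 for *Ghr*, -0.93 to 0.0086 for *Igfals*, -0.57 to 0.15 for *Igfbp4* and -0.18 to 0.45 for *Socs2*, and -0.31 to 0.63 for the pausing index of *Igfbp2*. In these fits the lone library of a genotype is assumed to vary like the others. The cause was not tested. Of 744 values of 45 single-gene results under alternatives, 658 kept direction and side of the threshold, 62 lost the call, 5 gained it and 19 turned. This tally overstates stability. The replicate block, crossed pairing and activity filters cannot move a fold change, and dropping the threshold on fold cannot lose a call. Results that were not called and stayed so count as kept. Over all active genes, within-region median-of-ratios scaling called 2 genes up by the pausing index in place of 1421.

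The block ended the promoter-proximal call of *Cish* (adjusted p = 0.0808) and the pausing calls of *Igf1* (0.0556), *Ghr* (0.0845) and *Socs2* (0.10). Deviations of same-numbered libraries correlated at -0.11 (promoter-proximal), 0.02 (gene body) and -0.07 (pausing index) over 12705 genes, and the libraries were not treated as pairs. Crossed pairing, added after seeing the data, left all counts of members called as they were. It set WT1 with KO2, the libraries with fewer *Xist* reads, and WT2 with KO1. Over all active genes it raised calls up from 1421 to 4121 by the pausing index and from 3282 to 4861 near the TSS. Why these calls rose was not tested. *Igfals* had the fewest gene body reads of the 10 genes in each library, with 92, 203, 62 and 62 in WT1, WT2, KO1 and KO2.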

Other observations

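Several genes of the wider lists were below the activity cutoff and were not tested, and those given here were chosen after their values were seen. *Cyp7b1*, an oxysterol hydroxylase gene that is higher in adult males, had 438 and 411 normalized gene body reads in WT and 819 and 738 in KO. *Hsd3b5* and *Elovl3*, also higher in adult males, had 26.4 and 24 and 11.5 and 7 reads in WT, against 3.18 and 4.55 and 0 and 0 in KO. *Cyp2a4*, which is higher in adult females and has near-identical copies, had 5.74 and 6 in WT and 28.6 and 25.8 in KO. *Pappa2*, whose protease cuts IGFBP3 and IGFBP5, had 28.7 and 32 in WT and 14.9 and 9.11 in KO. The summed reads of 4 Y-linked genes were 5579 (WT1), 2112 (WT2), 3553 (KO1) and 4909 (KO2).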
